A study of Danio rerio with 8 samples.

Results

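The SLC30 zinc exporters described here are 8 zebrafish genes, slc30a2, slc30a4, slc30a5, slc30a6, slc30a7, slc30a8, slc30a9 and slc30a10, which had 12 of the 43603 zebrafish probes on a 1-color Agilent array. Probes were taken where the transcript accession that the array gives belongs to 1 of these genes in the RefSeq gene table, which found 10 probes of 7 genes. No probe carried a current RefSeq accession of slc30a8. Its 2 probes carry the Ensembl transcript ENSDART00000080344, and they could be named only through the study's list of changed transcripts. That list gives the transcript a LOC number, which is now the gene ID of slc30a8. No probe sequence was available to check the name, so the identity of these probes rests on that route alone. A probe of an unchanged transcript would have stayed unnamed by this route, so the number of slc30a8 probes that changed is not independent evidence about the family, although each probe was tested among all probes of the array.

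The arrays measured RNA from whole zebrafish larvae at 96 h post fertilization (hpf) in 3 groups. Larvae of the control group were not treated (2 arrays). The others were exposed to zinc oxide nanoparticles (ZnO NPs) at 2.64 mg/L (3 arrays) or to zinc sulfate (ZnSO4) at 7.75 mg/L (3 arrays). Per the paper, the exposure began with embryos and ran to 96 hpf. The paper also states that treatments were run in triplicate, while the control group here has 2 arrays. Each concentration is the LC25 of its compound, the concentration estimated to kill the same fixed share of larvae with either compound, so the mass concentrations of the compounds differ. The paper reports that the LC25 values were close to each other when expressed as measured zinc, but the confidence intervals it gives for them are wide. The larvae of a dish were pooled for RNA, so an array averages over all tissues and animals of that pool, and a change in the share of a cell type cannot be told apart from a change in RNA per cell.

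SLC30 proteins, also called ZnT, move zinc out of the cytosol, either across the plasma membrane or into an organelle, while SLC39 (ZIP) proteins move it into the cytosol. Work in mammals places most members on internal membranes, where they load zinc into secretory vesicles, the Golgi or endosomes. When zinc rises, the sensor MTF1 switches on metallothioneins, small proteins that bind the metal, and this response also operates in zebrafish.

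Of the 8 genes, slc30a8 was higher in larvae exposed to either form of zinc, by 3.37- to 3.83-fold, while the other 6 genes that could be tested differed from control by less than 1.5-fold at every probe. The levels given below are the background-subtracted signals of the scanner software, scaled so that all 8 arrays share the same 75th percentile, and averaged over the spots of a probe. limma tested the probes that stood well above background throughout 1 group or more (34616 of the 43603, and 11 of the 12 SLC30 probes). A call needed a change of 1.5-fold or more together with an adjusted p (Benjamini-Hochberg, over all 34616) below 0.05. The number of arrays, most of all the 2 control arrays, limits the precision.

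**Figure D1:**
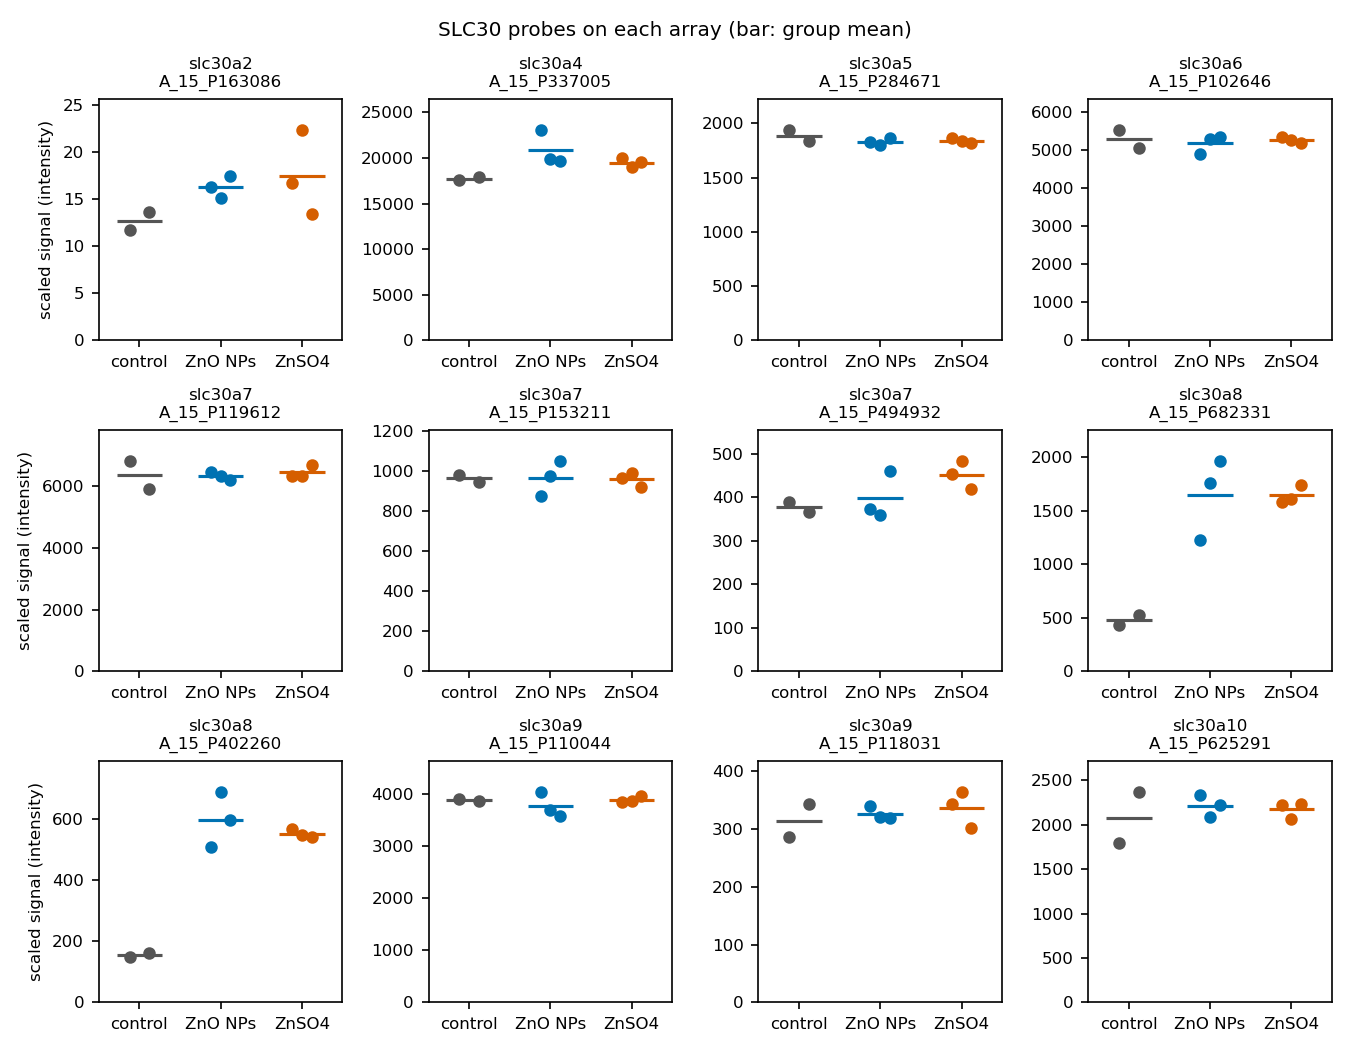
Scaled signal (y axis, intensity, starting at 0) of each of the 12 SLC30 probes on every array, with 1 point per array and a bar at the group mean. The panels of slc30a8 show treated arrays at 1228 to 1959 and at 508 to 689, above control arrays at 437 to 527 and at 149 to 161, and in most other panels the groups overlap.

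The genes slc30a8, slc30a4 and slc30a2 act on vesicles in mammals. The protein of slc30a8, ZnT8, loads zinc into the insulin granules of pancreatic beta cells. Its brighter probe, A_15_P682331, gave 437 and 527 in control, 1228, 1762 and 1959 with ZnO NPs, and 1581, 1610.3 and 1739 with ZnSO4. All 6 treated arrays lay above both control arrays, and ZnO NP replicate 1 was the lowest of the treated arrays. The probe had 2 spots per array, which differed by at most 17.6% of the lower spot. The group means were 482 ± 63.6 (SD, n = 2) in control, 1649.5 ± 378 (SD, n = 3) with ZnO NPs and 1644 ± 84.2 (SD, n = 3) with ZnSO4. The spread among the ZnO NP arrays was the widest of the groups at this probe. The fold change was 3.37 for ZnO NPs (95% interval 2.47 to 4.59) and 3.42 for ZnSO4 (2.51 to 4.66), and limma's adjusted p was 0.0567 and 0.0583, just outside the threshold.

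The second probe of slc30a8, A_15_P402260, gave 149 and 161 in control, 508, 689 and 599 with ZnO NPs, and 569, 549 and 542 with ZnSO4. Again every treated array was above both control arrays, and ZnO NP replicate 1 was the lowest. The means were 155 ± 8.60 (SD, n = 2), 599 ± 90.1 (SD, n = 3) and 553 ± 13.8 (SD, n = 3). The log2 fold change was 1.94 (SE 0.12) for ZnO NPs, a 3.83-fold rise with an adjusted p of 0.00883 in limma, and 1.83 (SE 0.12) for ZnSO4, a 3.57-fold rise with an adjusted p of 0.0146. This probe was called in each treatment, and it was the only SLC30 probe called in either, where 0.0231% of all tested probes were called up for ZnO NPs and 0.0144% for ZnSO4.

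Both probes of slc30a8 were called when the mean of the treatments was set against control. The rise was 3.39-fold for A_15_P682331 (adjusted p 0.0236 in limma) and 3.70-fold for A_15_P402260 (adjusted p 0.00531), where 0.052% of all probes were called up. The call of A_15_P682331 was lost without control replicate 1, ZnO NP replicate 2 or 3, or ZnSO4 replicate 1, 2 or 3, with adjusted p-values of 0.0553 to 0.0943, while its log2 fold change stayed between 1.63 and 1.78. With the 2 probes averaged to 1 value per gene before the fit, the log2 fold change of slc30a8 was 1.85 (SE 0.15, adjusted p 0.0194) for ZnO NPs and 1.80 (SE 0.15, adjusted p 0.0189) for ZnSO4. Ordered by fold change from the highest, the probes stood at positions 14 and 21 of 34616 for ZnO NPs and at 22 and 26 for ZnSO4, the same control arrays serving both comparisons. These probes were named only through the study's list of changed transcripts. A position near the top was thus partly set by how they were found. The probes share a transcript and are not replicates of each other.

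Set against each other, the treatments did not separate at slc30a8. The fold of ZnO NPs over ZnSO4 was 0.986 at A_15_P682331, with a 95% interval from 0.747 to 1.30 (adjusted p 0.985 in limma), and 1.07 at A_15_P402260, with an interval from 0.899 to 1.28 (adjusted p 0.873). Differences between the treatments within these intervals could not be resolved with these arrays.

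The file headers place the arrays in 2 rows, called sides here, and all 8 were taken to share 1 slide. The first side held both controls with ZnO NP replicates 1 and 2. The second side held ZnO NP replicate 3 with every ZnSO4 array, so the ZnSO4 treatment and the side overlap. Within the side that holds control and ZnO NP arrays, the log2 fold change of slc30a8 was 1.61 (SE 0.22) at A_15_P682331 and 1.93 (SE 0.18) at A_15_P402260, with an adjusted p of 0.393 at each, from 2 arrays against 2. With the side as a block in the fit of all arrays, the ZnSO4 values were 1.36 (adjusted p 0.444) and 1.82 (adjusted p 0.208). In that fit the ZnSO4 values depend on ZnO NP replicate 3, the only ZnO NP array on the second side. At A_15_P682331 that replicate was the highest of all arrays, at 1959. The call of A_15_P402260 for ZnO NPs was lost without ZnO NP replicate 3 (adjusted p 0.0636), and that for ZnSO4 without ZnO NP replicate 3 (0.0604) or without ZnSO4 replicate 1, 2 or 3 (0.0993, 0.0832 and 0.0811), while the log2 fold changes stayed between 1.81 and 1.93.

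Since slc30a8 is known as an islet gene, islet markers were read beside it. Of 10 listed genes, 9 had probes, all 17 of them well above background on all 8 arrays. In either treatment 0 were called up or down, where 0.0231% (ZnO NPs) and 0.0144% (ZnSO4) of all probes were called up. The share of all probes called down is not given here, so the count of 0 is not read as a result about the islet. At an unadjusted p under 0.05 with a fold of at least 1.5, 1 was up for ZnO NPs and 2 for ZnSO4, against 2.11% and 1.4% of all probes. Insulin (ins, probe A_15_P632191) gave 4414 and 9394 in control, 8374 to 8757 with ZnO NPs and 7523 to 7905 with ZnSO4, so the treated arrays fell between the controls. The glucagon gene gcga and the islet transcription factor gene pdx1 were likewise lower on control replicate 1 than on control replicate 2, at 1091 and 2257 for gcga (A_15_P132351) and at 956 and 1836 for pdx1 (A_15_P111796). At sst2, a somatostatin gene, the control arrays gave 2432 and 6755 (A_15_P107246). The ZnO NP arrays gave 2480 to 2742 there and the ZnSO4 arrays 2570 to 3216. Its log2 fold changes were -0.65 for ZnO NPs (adjusted p 0.299 in limma) and -0.50 for ZnSO4 (adjusted p 0.482). The other sst2 probe gave -0.69 and -0.55, and the probe of sst1.1 gave -0.11 in each treatment. As a ratio, the controls were closer to each other at both slc30a8 probes than at the ins, gcga, pdx1 and sst2 probes named here. They were closer still at isl1a and nkx2.2a, also on the list. There they gave 1390 and 1418 (isl1a, A_15_P104977) and 792 and 774 (nkx2.2a, A_15_P108187). The log2 fold changes at these probes were 0.07 and -0.07 for ZnO NPs, and 0.02 and -0.07 for ZnSO4.

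Summed over the 17 islet probes, the scaled signal was 26526 and 48155 on the control arrays, 35920.0 to 37821 with ZnO NPs and 35249 to 36511 with ZnSO4. The treated ranges lay inside the range of the control arrays, but the sum is carried by bright probes such as those of ins, sst1.1 and sst2. Some other islet probes went another way. The probe of gcgb, a second glucagon gene, gave 1114 and 2242 in control, 1959 to 2421 with ZnO NPs and 2177 to 2377 with ZnSO4. Its log2 fold changes were 0.51 (adjusted p 0.26 in limma) and 0.54 (adjusted p 0.31). At both probes of pcsk1, a protease that processes prohormones, all 6 treated arrays lay above both controls, as at slc30a8. The same held at 13.6% of all probes. A_15_P180426 gave 29.7 and 38.0 in control and 47.2 to 65.7 on the treated arrays, with log2 fold changes of 0.83 for ZnO NPs (adjusted p 0.104 in limma) and 0.65 for ZnSO4 (adjusted p 0.174), and A_15_P661461 gave 46.7 and 50.9 in control and 61.6 to 84.5 on the treated arrays, with 0.58 (adjusted p 0.117) and 0.51 (adjusted p 0.200). The dim pdx1 probe, A_15_P143411, gave 45.3 and 77.6 in control and 85.0 to 108.9 with ZnSO4, above both controls, with a log2 fold change of 0.64 (adjusted p 0.240). None of these was called, and the part of islet cells in the slc30a8 result was not tested.

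**Figure D2:**
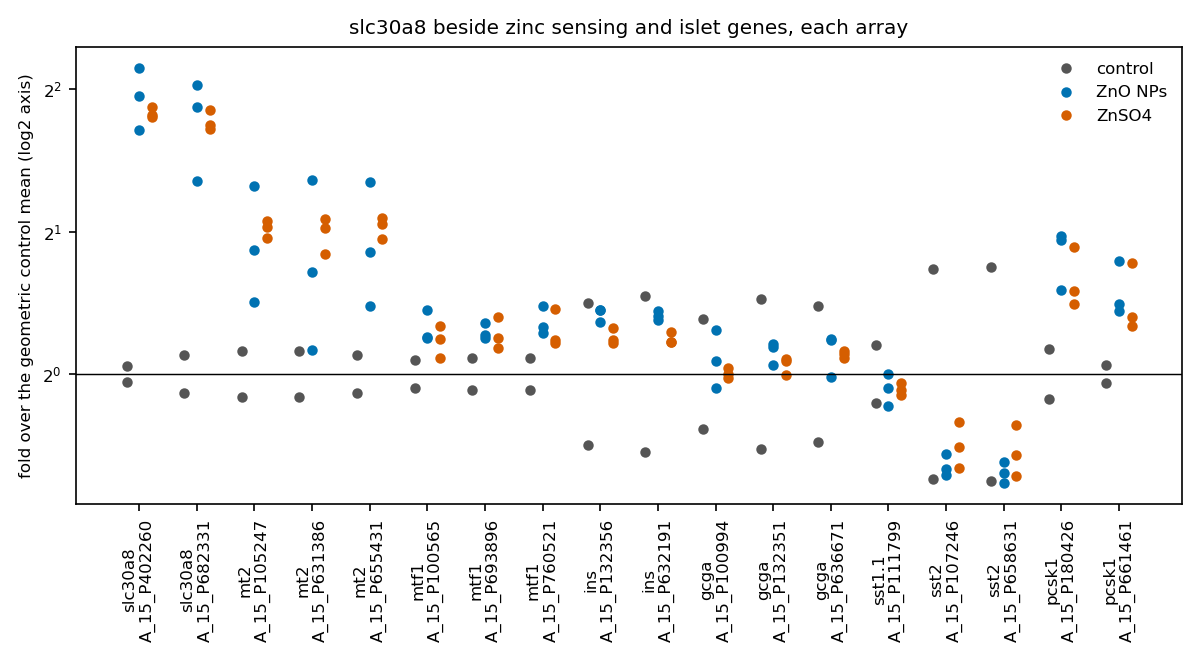
Signal of slc30a8, mt2, mtf1 and 5 islet genes on every array, as the fold over the geometric mean of the control arrays (log2 axis, line at 1), with 1 point per array and 1 column per probe. For slc30a8 the treated arrays sit at 2.56 to 4.44 times the control mean, while for ins they sit between the 2 control arrays. At both pcsk1 probes the treated arrays also sit above both controls, at 1.26 to 1.96. At sst2 they sit near the lower control.

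The protein of slc30a4, ZnT4, moves zinc into vesicles and endosomes and, in mice, is needed for zinc in milk. Its single probe, A_15_P337005, gave 17557 and 17919 in control, 23036, 19950 and 19715 with ZnO NPs, and 19988, 18976 and 19516 with ZnSO4. The treated arrays did not overlap the control arrays, but the difference was small. The fold change was 1.18 for ZnO NPs (95% interval 1.02 to 1.35, adjusted p 0.159 in limma) and 1.1 for ZnSO4 (0.957 to 1.26, adjusted p 0.419), so slc30a4 passed neither part of the call.

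The slc30a2 gene encodes ZnT2, a vesicular transporter of secretory cells in mammals. Its single probe, A_15_P163086, was dim and was not tested, since it was well above background on only 2 of the 8 arrays. Its signals were 11.7 and 13.6 on the control arrays, 15.1 to 17.5 with ZnO NPs and 13.5 to 22.3 with ZnSO4. No fold is given for it, since in no group was it well above background on every array.

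The early secretory pathway is served by slc30a5, slc30a6 and slc30a7, whose mammalian products load zinc into the Golgi and supply enzymes such as alkaline phosphatase. The proteins of slc30a5 and slc30a6 work as a pair. The slc30a5 probe (A_15_P284671) gave 1934 and 1832 in control, 1823, 1803 and 1861 with ZnO NPs, and 1868, 1833 and 1818 with ZnSO4. The slc30a6 probe (A_15_P102646) gave 5527 and 5052, then 4901, 5295 and 5352, then 5352, 5267 and 5196. The groups overlapped at both, and the log2 fold changes were -0.04 (SE 0.06) and -0.03 (SE 0.06) for slc30a5 and -0.03 (SE 0.07) and -0.0036 (SE 0.07) for slc30a6, ZnO NPs first.

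The most intense of the 3 probes of slc30a7, A_15_P119612, gave 6794 and 5907 in control, 6460.1, 6327 and 6177 with ZnO NPs, and 6322, 6321 and 6678 with ZnSO4, with all treated arrays between the controls. Its second probe, A_15_P153211, ranged from 876 to 1047 over the 8 arrays with overlapping groups. The third, A_15_P494932, gave 390 and 367 in control, 372, 359 and 460.1 with ZnO NPs, and 454, 482 and 419 with ZnSO4. There the ZnSO4 arrays lay above both controls, with a fold of 1.19 (95% interval 0.981 to 1.45, adjusted p 0.307 in limma), which the other probes of the gene did not share: their ZnSO4 folds were 1.02 and 0.994.

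The product of slc30a9 acts in mammals on the zinc of mitochondria, and that of slc30a10 is known in mammals chiefly as an exporter of manganese at the cell surface. The main slc30a9 probe (A_15_P110044) gave 3905 and 3854 in control, 4028, 3694 and 3582 with ZnO NPs, and 3845, 3872 and 3952 with ZnSO4, and its second probe (A_15_P118031) ranged from 287 to 363 over all arrays. Neither probe separated the groups. The slc30a10 probe (A_15_P625291) gave 1793 and 2362 in control, 2336, 2089 and 2217 with ZnO NPs, and 2218, 2067 and 2232 with ZnSO4, so that the treated arrays lay between the 2 control arrays. Its fold changes were 1.07 for ZnO NPs (0.884 to 1.31) and 1.06 for ZnSO4 (0.868 to 1.28).

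Over the 9 tested probes of the 6 genes other than slc30a8, the log2 fold change ran from -0.04 to 0.23 for ZnO NPs and from -0.03 to 0.25 for ZnSO4, with standard errors of 0.06 to 0.12. The 95% interval lay within 1.5-fold in either direction at all 9 probes in each treatment, with bounds between 0.859 and 1.45. Their median was 0.00 for ZnO NPs and 0.02 for ZnSO4, where the median over all 34616 probes was 0.03 and 0.02. Against each other the treatments gave log2 differences of -0.19 to 0.10 at these probes, again with all 9 intervals within 1.5-fold.

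**Figure D3:**
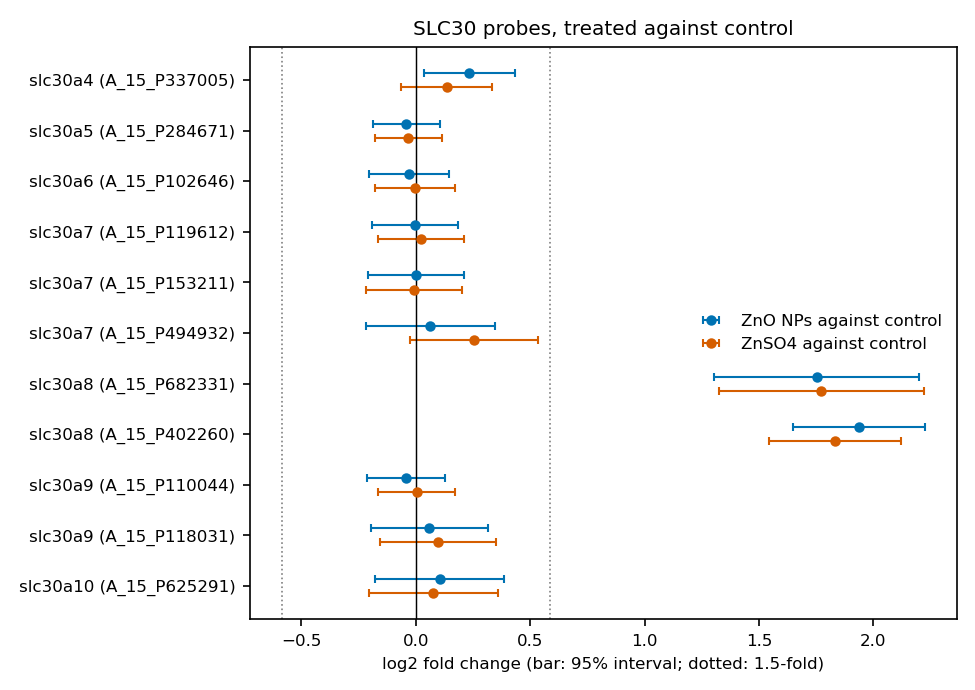
Log2 fold change against control (x axis) of the 11 tested SLC30 probes, with points at the estimate, bars for the 95% interval and dotted lines at 1.5-fold. The 2 probes of slc30a8 lie at 1.75 to 1.94 and all 9 others have intervals inside the dotted lines.

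Counted over the 11 tested probes, 1 was called up in each treatment and 2 over their mean, all of them slc30a8. The shares of all probes called up were 0.0231%, 0.0144% and 0.052%. In these comparisons 0 were called down, but the share of all probes called down is not given here. The count of 0 is thus not read as a result about the family. At an unadjusted p under 0.05 with the same fold, 2 were up in each of the 3 comparisons, again slc30a8, against 2.11%, 1.4% and 1.47% of all probes. The 2 slc30a8 probes were named only through the study's list of changed transcripts. Counts that include them are therefore no evidence about the family beside the shares of all probes. Of the 9 tested probes of the other 6 genes, 0 were called and 0 passed at an unadjusted p under 0.05 with the same fold. The slc30a4 probe had an unadjusted p of 0.028 for ZnO NPs and 0.044 for the mean of the treatments in limma. Its folds there, 1.18 and 1.14, were below the threshold. Between the treatments 0 SLC30 probes were called, against 0% of all probes in limma. At an unadjusted p with the same fold 0 passed, against 0.586%. Every treated array lay above both control arrays at 3 of 11 probes for ZnO NPs (23.9% of all probes). For ZnSO4 this held at 4 of 11 (19.8%), and for all 6 treated arrays at 3 of 11 (13.6%). Arrays that do not overlap were thus common in this series.

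**Figure D4:**
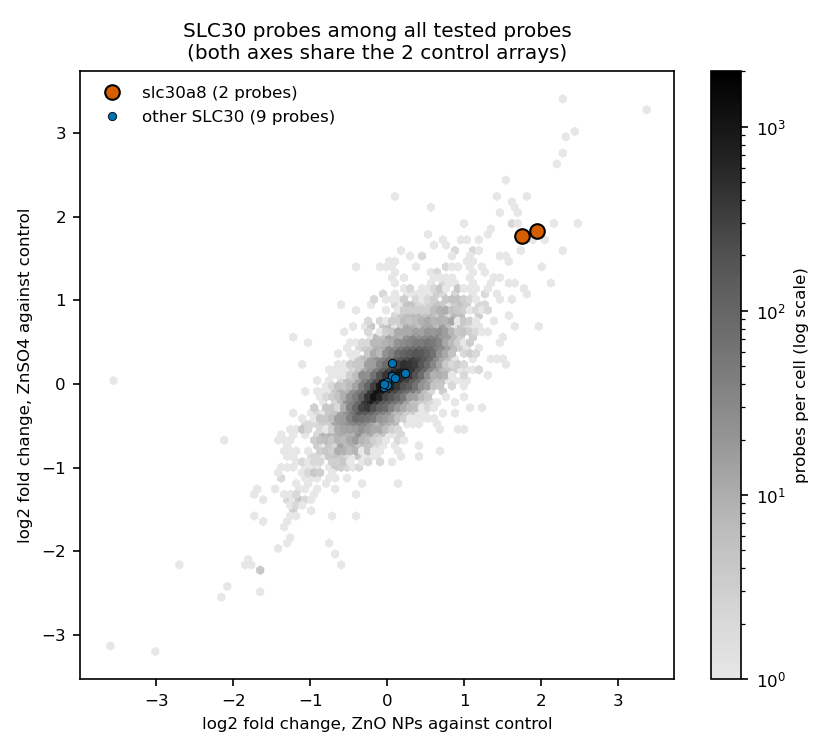
Log2 fold change of all tested probes for ZnO NPs (x axis) and ZnSO4 (y axis), with probes per cell in grey on a log scale and SLC30 probes marked. The axes share the 2 control arrays, so their likeness is not a result. The 2 slc30a8 probes lie near 1.8 on both axes, outside the bulk of probes, and the other 9 SLC30 probes lie near 0.

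The zinc-binding, zinc-sensing and zinc-importing genes read beside the family came from a list of 15, of which 9 had probes (21 probes, all tested). Limma called 0 of them in any comparison. The share of all probes called down is not given here, so that count is not read as a result about these genes. In each treatment 3 of 21 probes were up at an unadjusted p under 0.05 with a fold of at least 1.5, against 2.11% and 1.4% of all probes. These were the 3 probes of a single gene, the metallothionein gene mt2. Its brightest probe, A_15_P105247, gave 20100 and 16090 in control, 25560, 32950 and 45010 with ZnO NPs, and 36800, 34800 and 37950 with ZnSO4. Every treated array was above both controls, ZnO NP replicate 1 was again the lowest, and the log2 fold change was 0.90 (SE 0.22, adjusted p 0.108) and 1.02 (SE 0.22, adjusted p 0.162).

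The 3 probes of mtf1, the zinc sensor, differed from control by 0.30 to 0.36 on the log2 scale for ZnO NPs and by 0.23 to 0.30 for ZnSO4, with adjusted p-values of 0.127 to 0.140 and 0.224 to 0.296. Importer probes of the SLC39 family lay between -0.39 and 0.42 for ZnO NPs and between -0.17 and 0.15 for ZnSO4. None of the importer probes reached a fold of 1.5. The probe of tmem163a, which encodes a membrane protein that also carries zinc, was dim (23.4 to 48.6 over the arrays) with overlapping groups and log2 fold changes of 0.27 and 0.50 (SE 0.33 each).

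The probes whose normalized log2 level followed A_15_P682331 of slc30a8 most closely over the 8 arrays were those of pfkfb4a, which encodes an enzyme that regulates glycolysis (Pearson r 0.990), klf13, a transcription factor gene (r 0.988), and zgc:110286 (r 0.982). For slc30a4 they were those of keap1b, which encodes an inhibitor of the stress regulator Nrf2 (r 0.996), atp2b2, a calcium pump gene (r 0.994), and mfsd2ab, a lipid transporter gene (r 0.983). These are the highest of very many correlations over 8 arrays, and at the other 5 genes, where the groups hardly differed, the highest r was still 0.958 to 0.986.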

How the data were processed

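The deposited files hold spot intensities of 8 arrays, which per the file headers came from Feature Extraction 10.10.1.1, with the background subtracted and a spatial trend removed. A table of log2 values by the authors (percentile-shifted and centered per probe) differed by at most 0.02 from the scanner values at 99.91% of entries. Control and outlier spots were left out, log2 signals were averaged over each probe's spots, and each array was shifted by the 75th percentile of its spots. A probe counted as well above background where a share of 0.5 or more of its spots was marked so. limma 3.58.1 in R 4.3.3 was fitted to the 3 groups at once (degrees of freedom 5 residual, 2.43 prior). On each array 77.5% to 85.8% of probes were well above background, and 0 spots were saturated. The 2 control arrays differed most (SD of log2 differences 0.351, against 0.242 to 0.296 within treatments). Samples were taken from separate dishes as far as the methods say. Probes were named through RefSeq accessions and the gene table of GRCz12tu, and 107 through LOC numbers of the study's table. No coordinates are given, since the files use another genome build. No sequences are printed here.

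The probe with the highest mean level of each gene was described in full. Genes of the family, the zinc genes and markers of islet, liver, intestine, exocrine pancreas, muscle, brain, skin and ionocytes were listed with earlier results of these data known. Alternatives changed the scaling, background correction (normexp on the median signal), filter, outlier spots, test, call rule, arrays, blocks and averaging of probes. The fit was also run on simulated data, but no outcome of that run is given or used here. Results for other members of the transporter families are not reported here.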

Additional observations from a re-analysis of the deposited data

How the results depend on the processing

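The count of called SLC30 probes for ZnO NPs was 1, and became 2 with quantile or median scaling, normexp, a filter to probes well above background on all arrays, unadjusted LSD comparisons of the methods' ANOVA, an unadjusted p or the fold alone, and 0 with an adjusted ANOVA F test, only the groups compared, the side as a block or the side that holds the controls. For ZnSO4 it went from 1 to 2 under the same choices except quantile scaling, and to 0 without the filter on dim probes, with an adjusted F test or with the side as a block. For the mean of the treatments it went from 2 to 1 without the filter or with probes of a gene averaged (1 gene), and to 0 with an adjusted F test or the side as a block. Leaving out 1 array gave 0 to 2 in either treatment and 1 to 2 for their mean, where the 1 remaining was A_15_P402260, and with 1 control array left its spread was taken to equal that of the treated groups. Between the treatments the count was 0 under every alternative.

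Deviations from group means correlated at -0.07 to 0.15 between arrays of the same replicate number and at -0.19 to 0.12 between arrays of different numbers. In groups of 2 or 3 arrays the deviations depend on each other, so this cannot settle whether the numbers pair the arrays. The main fit left the numbers out. With the replicate number as a block, each of these 3 counts was 0, and A_15_P402260 of slc30a8 had 1.94 (adjusted p 0.0968) and 1.84 (adjusted p 0.103). Each called probe is slc30a8, whose log2 fold change ranged over all alternatives from 1.57 to 2.05 and from 1.48 to 1.89 at A_15_P402260, and from 1.60 to 1.95 and from 1.36 to 1.91 at A_15_P682331, for ZnO NPs and ZnSO4. No value that was past an unadjusted p of 0.05 changed its direction. The cause of the lost calls was not tested, and the number of arrays limits what can be called.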

Other observations

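None of the probes of the tissue marker lists were called by limma in either treatment, where 0.0231% (ZnO NPs) and 0.0144% (ZnSO4) of all probes were called up. The lists of liver (12 probes), exocrine pancreas (11), muscle (12), brain (9), skin (17) and ionocytes (7) held 0 probes past a fold of 1.5 at an unadjusted p under 0.05. The intestine list (11) held 1 that was lower with ZnO NPs, of the apolipoprotein gene apoa4b.1 (log2 fold change -0.61, adjusted p 0.150). Of all probes, 2.11% were up at that threshold for ZnO NPs and 1.4% for ZnSO4. The share that was down is not given here, so these counts are not read as results about the tissues. The median log2 fold change of the exocrine pancreas probes was -0.20 for ZnO NPs and 0.10 for ZnSO4, and that of the liver probes was -0.22 and -0.05. Summed signals of the exocrine pancreas probes were 187805 and 538873 on the 2 control arrays. These span the range of all treated arrays but 1. For the liver probes the treated arrays lay below both controls, at 340722 to 510028 against 546491 and 561047. That sum is carried by bright probes such as those of apoa2 and serpina1. Single liver probes had log2 fold changes from -0.55 to 0.33 for ZnO NPs and from -0.41 to 0.50 for ZnSO4. The muscle sums were lower as well, at 2307550 to 2498510 against 2609120 and 2737930. Every muscle probe had a negative log2 fold change in each treatment (-0.21 to -0.02), but these probes belong to 4 genes. Over all probes, 55.2% had a positive log2 fold change for ZnO NPs and 54.1% for ZnSO4.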
